A study of Mus musculus with 10 samples.

Results

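The neighbourhood of the Six2 gene was examined in binding maps of Six2 and β-catenin from mouse nephron progenitors, the mesenchymal cells that form the nephron epithelium. Its members were all peaks of 4 peak lists that overlapped chromosome 17, 85950000 to 86300000 (mm9), and they numbered 23 of 10348 peaks in all. Six2 replicate 1 gave 11 of its 5645 peaks, Six2 replicate 2 gave 5 of 1622, β-catenin replicate 1 gave 3 of 1873 and β-catenin replicate 2 gave 4 of 1208. Within this stretch Six2 lies near 86.084 to 86.088 Mb on the minus strand, so that upstream of the gene means higher coordinates. Distances below run from 86.088 Mb, which is rounded to 1 kb.

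All cells were sorted by FACS at E16.5, in mid to late gestation, from kidneys positive for the Six2GFPcre BAC transgene, on a mixed strain background. The Six2 antibody was used on freshly sorted cells. The β-catenin antibody was used on sorted cells that were pelleted and then kept in culture with 4 µM BIO for 24 h. BIO blocks GSK3, the kinase that marks β-catenin for breakdown. Effects of the antibody and of the culture cannot be told apart. The 4 input and 2 rabbit IgG samples of the series were not used here, so binding was not set apart from regions that are enriched whatever the antibody. The transgene carries DNA of the Six2 locus, and its extent is not given in the sources used here. Peaks on copies of the transgene and peaks on the endogenous gene cannot be told apart.

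Six2, a transcription factor with a homeodomain, holds nephron progenitors in their undifferentiated state, and progenitors that lose it form epithelium too early. β-catenin is the co-activator of canonical Wnt signalling and reaches DNA through TCF/LEF factors. In these cells Wnt signalling serves both the upkeep of the progenitors and their commitment to epithelium. A distal element upstream of Six2 is known as an enhancer that is active in nephron progenitors. The peak lists show where each antibody enriched DNA and do not measure the activity of any element.

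Six2 itself is flanked by Six3, a related homeobox gene, on the side of its 3′ end. On the upstream side the RefSeq gene table (GRCm38.p6) lists the long non-coding RNA gene CJ186046Rik next, and Srbd1 as the nearest protein-coding gene. That table is of another build than the peaks and was used for the order of genes alone. The promoter of Six2 is shown because a leading Six2 peak lay at the start of the gene. It is the 250 bases before the start of transcription on the minus strand, chr17:85688255-85688504 (GRCm38.p6, from RefSeq), with CpG dinucleotides in capitals.

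Six2 promoter: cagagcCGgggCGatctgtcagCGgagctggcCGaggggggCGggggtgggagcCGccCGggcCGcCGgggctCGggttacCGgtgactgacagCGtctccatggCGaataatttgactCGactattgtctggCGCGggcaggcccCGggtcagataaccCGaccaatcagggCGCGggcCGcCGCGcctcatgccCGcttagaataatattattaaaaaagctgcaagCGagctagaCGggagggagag

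This stretch has 64.8% G and C, against a median of 52.4% over 32851 promoters of the same length, and 26 CpG dinucleotides, against a median of 6. Of all promoters in the table, 17.7% had at least as much G and C and 9.59% at least as many CpG. Neither TCF/LEF word searched (CTTTGAT, in 3.21% of promoters, and CTTTGAA, in 4.46%) was found on either strand. For Six2 and its relatives, the words TGATACC (1.18% of promoters) and TCAGGTT (3.49%) were not found either. These letters alone were looked for, in this window alone. The sequences under the peaks were not read, since no mm9 genome was used here.

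The 23 peaks formed 15 sites once overlapping peaks were merged, and together the sites covered 3254 bp. All 15 lay on the gene or upstream of it. The 134 kb of the window beyond the 3′ end of Six2 held 0 peaks in each of the 4 lists, as did 73.0% of 18905 abutting windows of that length over the series. The 212 kb upstream held 19 peaks in 13 sites. Of the other 4 peaks, 3 formed a site at the start of the gene, whose side of the start the rounding does not resolve, and 1 lay inside the gene. Below the window the next peak of any list was 622566 bp away (Six2 replicate 1, row 3152). Above it the next was 87133 bp away, where both Six2 libraries had a peak, of rows 618 and 104. Within the window, the map of peaks by position shows that β-catenin peaks ended at the 60 kb sites and that Six2 peaks went on to 200.1 kb. Beyond the window, β-catenin replicate 1 had its next upstream peak 300.7 kb from the start (row 1702). That of β-catenin replicate 2 was 3631.2 kb away (row 35).

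**Figure D1:**
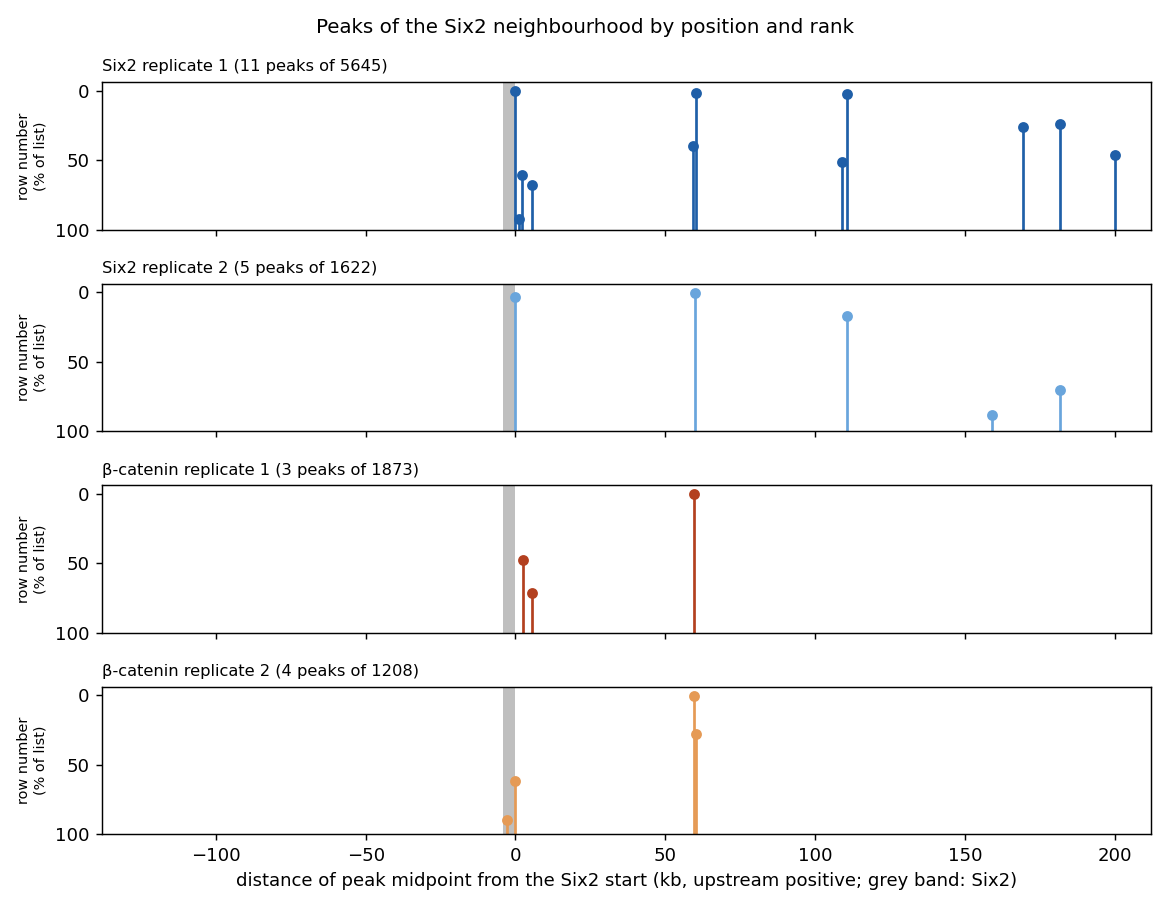
Peaks of the window by distance of their midpoint from the Six2 start (x, kb, upstream positive) and row number as percent of the list (y, 0 at the top), 1 panel per library; the grey band is Six2. The 11, 5, 3 and 4 peaks of the libraries all sit on the gene or to its right, and all 4 libraries have a peak near the top of the axis at about 60 kb.

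The lists give no score. Row number was used as rank because early rows were the ones found again. In the first decile of rows, 76.4% of Six2 replicate 1, 98.1% of Six2 replicate 2, 85.6% of β-catenin replicate 1 and 90.8% of β-catenin replicate 2 peaks overlapped a peak of the other library of the antibody. In the last decile these shares were 4.78%, 74.2%, 4.79% and 21.5%. Of the members, 4 of 11 were found again for Six2 replicate 1 (24.0% over its whole list) and 4 of 5 for Six2 replicate 2 (83.1%). For β-catenin, 1 of 3 members of replicate 1 (29.5% over the list) and 1 of 4 of replicate 2 (45.6%) were found again. With so few members these counts are descriptions and were not tested. The plot of recovery along the lists marks each member by its row.

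**Figure D2:**
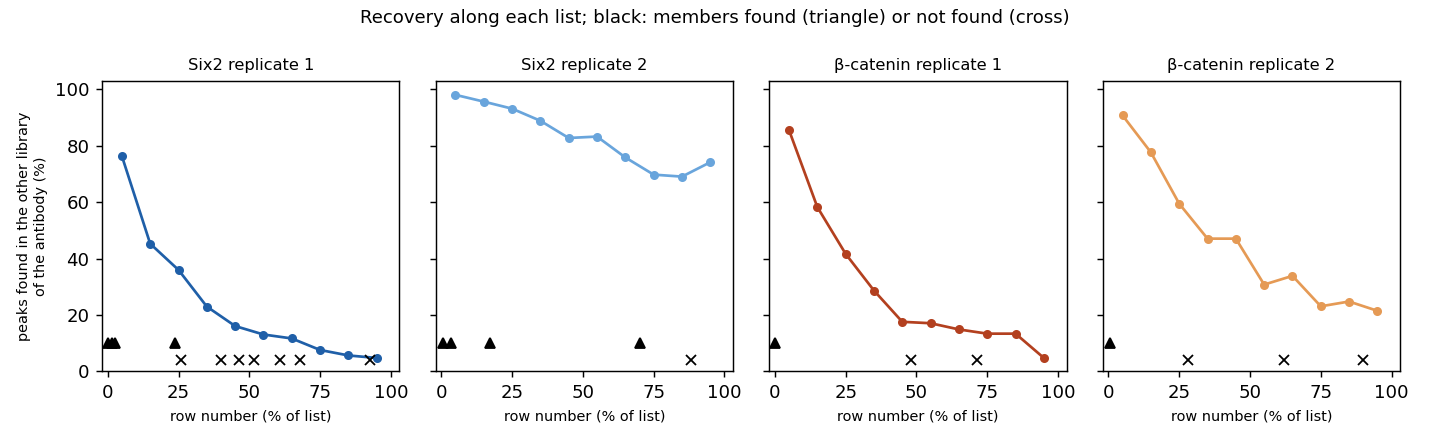
Percent of peaks that overlapped a peak of their antibody's other library (y) by decile of row number (x, percent of the list), with the members below as triangles (found) or crosses (not found). Of the 23 members, the 10 that were found include each library's member of lowest row number.

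The promoter site, at 86087683 to 86087832, held the best Six2 peak of the neighbourhood in replicate 1. That peak was row 15 of 5645 (0.266% of the list), at 86087683 to 86087807. In Six2 replicate 2 the matching peak was row 53 of 1622 (3.27%), at 86087688 to 86087809. These peaks shared 120 bp and their midpoints were 3.5 bp apart. They were 125 and 122 bp wide, below the medians of their lists, 146 and 207 bp. The replicate 1 peak was as wide as or wider than 33.7% of its list, and the replicate 2 peak 8.32%. β-catenin had a peak here in replicate 2 only, at 86087710 to 86087832, of row 748 of 1208 (61.9% of the list). It shared 98 bp with Six2 replicate 1 and 100 bp with Six2 replicate 2. β-catenin replicate 1 had no peak on this site. By mean row number of both libraries this region was 15 of the 1348 regions that both Six2 libraries found (1.11%). Its middle lay 0.2 kb inside the gene, less than the rounding of the start, so that its side of the start was not resolved.

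About 60 kb upstream lay a pair of neighbouring sites, and each was led by a different antibody. The site nearer to the gene, at 86147133 to 86147586, held the leading β-catenin peaks. β-catenin replicate 1 had row 2 of 1873 there (0.107% of the list), at 86147430 to 86147586, and replicate 2 had row 7 of 1208 (0.580%), at 86147484 to 86147563. The replicate 2 peak lay wholly inside that of replicate 1, with 80 bp shared and midpoints 15.5 bp apart. By mean row number this was 4 of the 551 regions that both β-catenin libraries found. Six2 replicate 1 had a peak over it at 86147133 to 86147579, of row 2261 of 5645 (40.1%), and Six2 replicate 2 had none. That Six2 peak was 447 bp wide, wider than or as wide as 97.6% of its list. It covered 150 bp of the β-catenin replicate 1 peak, yet its midpoint lay 152 bp nearer to the gene. Among 7666 merged sites of the series, 128 (1.67%) had this set of libraries, with both of β-catenin and Six2 replicate 1 alone.

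The site farther from the gene, at 86147968 to 86148289, held the leading Six2 peaks of the pair. Six2 replicate 2 had row 9 of 1622 there (0.555%), at 86147984 to 86148152, and Six2 replicate 1 had row 87 of 5645 (1.54%), at 86147980 to 86148273. The starts of these peaks differed by little and the replicate 1 peak ran on farther, so that 169 bp were shared and the midpoints were 58.5 bp apart. This was 26 of 1348 reproducible Six2 regions by mean row number. β-catenin replicate 2 covered the whole site with 322 bp at row 340 of 1208 (28.1%), and its midpoint was 2 bp from that of Six2 replicate 1. β-catenin replicate 1 had no peak there. Both Six2 libraries and exactly 1 β-catenin library were present at 233 of 7666 sites (3.04%).

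The order of the antibodies was thus opposite at these neighbours. Both β-catenin libraries ranked the near site above the far one (rows 2 and 7, against none and 340). Both Six2 libraries ranked the far site above the near one (rows 87 and 9, against 2261 and none). The merged sites were 381 bp apart, and the regions found by both libraries of each antibody were 393 bp apart. The libraries were made from fragments of 250 to 500 bp, a size close to this gap. When peaks 1 kb or less apart were joined, the pair became 1 site of 1157 bp with 6 peaks, which held all 4 libraries. Without such joining 0 of the 15 sites held all 4, against 126 of 7666 in the series (1.64%). With 2 libraries for each antibody an exact 2-sided permutation test cannot go below p = 0.333, and the opposite order was not tested.

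**Figure D3:**
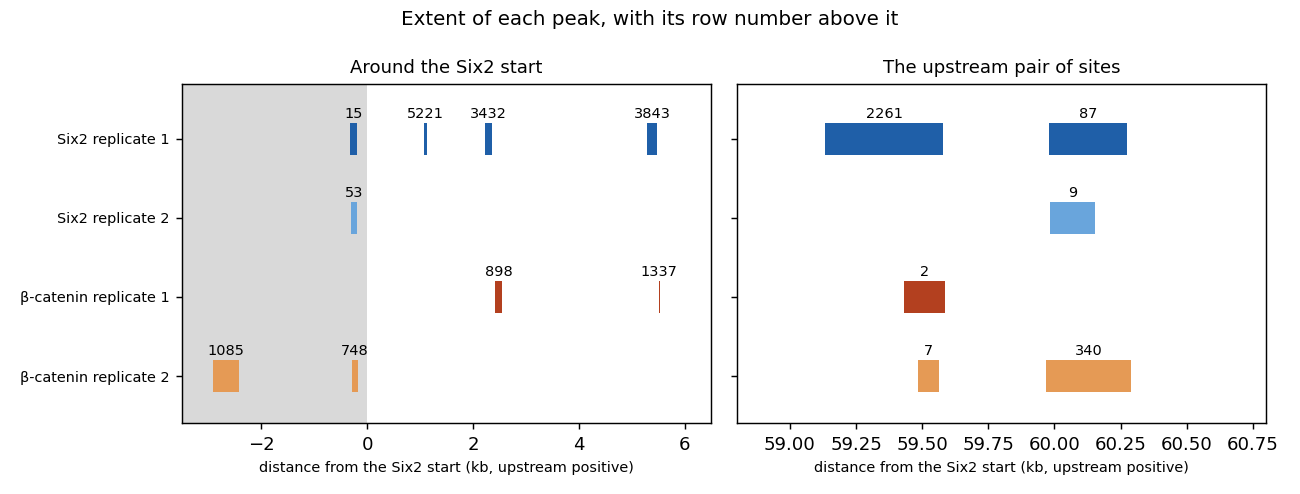
Extent of each peak (x, kb from the Six2 start, upstream positive) in the 4 libraries (rows), with its row number above it; the left panel is the start of the gene (grey) and the right panel the upstream pair. On the right, rows 2 and 7 of β-catenin sit left of the gap and rows 87 and 9 of Six2 right of it.

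The arrangement of the upstream pair was uncommon in the series. Of 551 reproducible β-catenin regions, 5 (0.907%) had a reproducible Six2 region within 1 kb but none that overlapped them. A Six2 peak of 1 library alone on the β-catenin region did not count as overlap. The region at Six2 had such a peak, of Six2 replicate 1 (row 2261), and it had the lowest β-catenin rows of the 5. Next by β-catenin rows came chromosome 6, 51124284 to 51124510 (rows 50 and 17). Its Six2 neighbour was 734 bp away, of rows 296 and 680. A region at chromosome 13, 110705203 to 110705301 (rows 44 and 59), had its Six2 neighbour 507 bp away, of rows 671 and 943. Inside that Six2 neighbour lay a further reproducible β-catenin region, 110705810 to 110705959, of rows 41 and 62. Both β-catenin libraries were thus found at both places there, other than at Six2. Another on chromosome 13, 98080810 to 98081001 (rows 87 and 332), had a Six2 neighbour 173 bp away, of rows 745 and 354. The last of the 5, on chromosome 18, which the rule for named regions leaves out, had β-catenin rows of 588 and 629. Its Six2 neighbour, 683 bp away, was of rows 52 and 36, so that its Six2 rows were early and its β-catenin rows late. The number was 2 with a limit of 500 bp and 14 with 5 kb.

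Regions within the first 100 rows of both libraries of an antibody gave a stricter view, chosen after the values were seen. There were 38 such Six2 regions, of which 2 lay in this window, and 52 such β-catenin regions, of which 1 did. Of the 52, 1 overlapped a leading Six2 region, on chromosome 11 at 96270039 to 96270255. The site upstream of Six2 was the 1 other that had a leading Six2 region within 1 kb. Across the series, 2 stretches of 350 kb held 2 leading Six2 regions. One was the Six2 neighbourhood, with the promoter site and the far upstream site, and the other was on chromosome 14.

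Further upstream within the window only Six2 peaks were found. At 86198468 to 86198745, 111 kb from the start, both Six2 libraries had a peak, of row 145 (2.57% of the list) in replicate 1 and row 279 (17.2%) in replicate 2. These shared 152 bp, with midpoints 63 bp apart. A second site of both libraries lay 182 kb upstream at 86269846 to 86270022, of rows 1346 (23.8%) and 1140 (70.3%), with 134 bp shared. By mean row number these were 147 and 850 of the 1348 reproducible Six2 regions. No β-catenin peak of either library overlapped them, which was also so for 990 of the 1348 regions (73.4%). The 4 sites found by both Six2 libraries were thus at the promoter and about 60, 111 and 182 kb upstream, and their mean row numbers were 34, 48, 212 and 1243, in the order of their distance.

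The other 4 sites beyond the upstream pair were in 1 library each. Six2 replicate 1 alone had sites at 86196872 to 86197040 (row 2920), 86257397 to 86257712 (row 1460) and 86288051 to 86288192 (row 2617). Six2 replicate 2 alone had one at 86247145 to 86247352 (row 1432 of 1622). In the deciles of these rows, 13.1%, 36.0%, 16.1% and 69.1% of peaks were found again over the whole lists.

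Near the gene, peaks of later rows lay beside each other in 2 places without overlapping. Six2 replicate 1 had a peak 2.29 kb upstream at 86090223 to 86090361 (row 3432), and β-catenin replicate 1 had one 46 bp further on, at 86090408 to 86090556 (row 898 of 1873). Again 5.39 kb upstream, Six2 replicate 1 had a peak at 86093291 to 86093484 (row 3843) and β-catenin replicate 1 one 28 bp beyond it, at 86093513 to 86093530 (row 1337). The latter was 18 bp wide, and 16 of 1873 peaks of that list were 18 bp or less. None of these 4 peaks was found in the other library of its antibody. Over the series, 22 of 1755 sites of β-catenin alone (1.25%) had a site of Six2 alone at most 50 bp away, a limit set after seeing these gaps, and the 2 sites here are among them. Six2 replicate 1 also had a peak of 50 bp at 86089082 to 86089131 (row 5221). Inside the gene, β-catenin replicate 2 had one of 488 bp at 86085083 to 86085570 (row 1085 of 1208), with no partner in any list.

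Of the 15 sites, 3 held peaks of both antibodies (9.99% over the series), 9 of Six2 alone (67.1%) and 3 of β-catenin alone (22.9%). The shared ones were the promoter site and both upstream neighbours. Each of these held 3 of the 4 libraries, and 4.84% of the 7666 sites held exactly 3. A single library accounted for 10 of the 15 sites, against 73.3% over the series. Counted by peaks, 3 of 11 members of Six2 replicate 1 (12.9% over its list) and 2 of 5 of Six2 replicate 2 (23.6%) lay under a β-catenin peak. Of the β-catenin members, 1 of 3 in replicate 1 (36.6%) and 3 of 4 in replicate 2 (27.9%) lay under a Six2 peak. The number of shared sites rested on β-catenin replicate 2, and without it 1 shared site was left, the near upstream one. With midpoints within 500 bp in place of overlap there were 5, since the adjoining peaks near the gene then counted.

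The neighbourhood was among the fullest stretches of the maps. Cut at fixed places into 7245 abutting windows of 350 kb, the chromosomes held 1 window (0.0138%) with 23 or more peaks. That window, on chromosome 2, held 148 peaks, 146 of them from β-catenin replicate 1. The median window held 0. Windows at fixed places split clusters, whereas the Six2 window was laid around a known gene. When the window was slid along the chromosomes, a comparison added after seeing the data, 7 separate loci reached 23. The Six2 locus then held 28, with the peaks from 299.2 kb upstream onwards, below the 148 on chromosome 2 and above 27 at loci on chromosomes 8 and 11. For regions found by both Six2 libraries, 17 of 7245 fixed windows (0.235%) held 4 or more, as the Six2 window did, and 25 loci did so when the window was slid. At least 1 reproducible β-catenin region, the number here, was held by 6.43% of the fixed windows. By library, the 11, 5, 3 and 4 members were equalled or passed in 0.0138%, 0.069%, 1.45% and 0.0966% of the fixed windows for Six2 replicates 1 and 2 and β-catenin replicates 1 and 2. Peaks of all 4 libraries, as found here, were held by 3.99%. A boundary of the fixed windows ran through the Six2 locus, and its parts are among the windows counted.

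**Figure D4:**
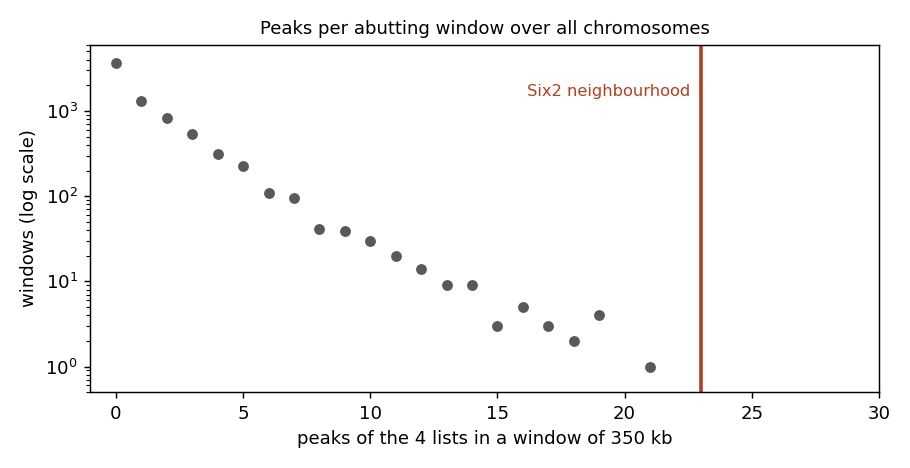
Number of abutting 350 kb windows (y, log scale) by the peaks of all 4 lists they hold (x); points are counts of windows and the vertical line is the Six2 neighbourhood, at 23. The window of 148 peaks on chromosome 2 lies beyond the axis, and the remaining windows hold 21 peaks at most.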

How the data were processed

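ChIP-seq was carried out on sorted mouse nephron progenitors, with 2 libraries for each antibody. The deposited values are peak coordinates, of another kind than counts. Each list holds 3 columns (chromosome, start, end), with no header, score or read count, so that the depth behind a peak is unknown. Build mm9 and CASAVA 1.6 are named in the submitters' processing notes. The labels name an input library for each of the 4 libraries. Neither the peak caller and its cut-off nor the use of those inputs in the calls is given in the sources used here. Per the labels' protocols, libraries were amplified with 18 PCR cycles. Whether the libraries of an antibody came from separate cells is not in the labels, and replicates were numbered in accession order.

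Starts were raised by 1 to give 1-based positions. Peaks sharing at least 1 bp were merged into sites, and regions with a peak of both libraries of an antibody were called reproducible. No test was run. The overlap code was tested on simulated lists. Every member is named. Outside the window, the named regions are reproducible β-catenin regions with a separate Six2 region within 1 kb, without chromosome 18, and the locus, window and leading-region comparisons. The members and lists were chosen with earlier results of these data known. Python 3.11.15 and pandas 2.3.3 were used.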

Additional observations from a re-analysis of the deposited data

How the results depend on the processing

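Row numbers carry order alone, and the unknown depth limits what a missing peak shows. Of the 23 peaks, 14 lay in the first 50% of their lists, and leaving out each library gave 12 (without Six2 replicate 1) to 20. The 3 shared sites became 5 with midpoints within 500 bp, and 1 to 3 when each library was left out, with 1 without β-catenin replicate 2. They were 2 with the first 50% of each list, and 2 when peaks had to share 50% of each other's width. In the latter case the near upstream site no longer counted as shared, since its Six2 peak was wide. The shared sites are thus sensitive to the overlap rule. They numbered 4 when the window was widened by 50% of its width on each side. The best β-catenin row was 2, and 2 to 7 when each library was left out, with 7 without replicate 1. Ordered by width, the best β-catenin position was 8, held by another peak, the 488 bp one of replicate 2 inside the gene. The peaks of rows 2 and 7 were as wide as or wider than 61.1% and 12.5% of their lists. The best Six2 row was 9, and 9 to 15 without each library. By width the best Six2 position was 136, held by another peak, the 447 bp one of replicate 1 on the near upstream site. The row 9 peak was as wide as or wider than 28.2% of its list. As percent of list length the promoter peak came first, at 0.266%. The 5 neighbouring regions became 2 at 500 bp, 14 at 5 kb and 3 with the first 50% of each list. The 1 fixed window as full as this one became 4 when windows were moved by 50% of their width, and 7 loci when the window was slid. The cause was not tested, beyond the fewer peaks compared. The sites found by both Six2 libraries numbered 3 to 6 over the alternatives, and those found by both β-catenin libraries 1 in each. The libraries of the 2 antibodies could not be paired with each other. Those of Six2 were from freshly sorted cells and those of β-catenin from cultured cells, and the labels give no replicate numbers. No test was run.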
